A study of Mus musculus with 12 samples.

Results

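The livers taken at ZT14, 2 hr after lights off, were set against the livers taken at all other times of the day. ZT (zeitgeber time) counts hours from lights on. The ZT14 group was chosen by its label and holds 2 of the 12 liver samples, 1 from each of 2 series. The word liver stands for 1 such sample below. The other 10 samples were taken at ZT2, ZT6, ZT10, ZT18 and ZT22, also 2 at each time. All 12 came from adult wild-type C57BL/6 males of 3 to 6 months that had been kept on 12 hr of light and 12 hr of dark for at least 2 weeks. No agent was given and no gene was altered in any group. The columns of the last time point are headed ZT20 in the deposited table and were taken as ZT22, the time in the sample labels. Poly(A) RNA was sequenced, and the level of a gene is given in reads per base pair (rpbp), the mean number of sequences that cover a base of its exons, at 40000000 uniquely mapped sequences per sample. It is a level per length, so that levels of different genes can be compared.

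The circadian clock of the liver is a loop in which the activators CLOCK and BMAL1 (the product of *Arntl*) drive their own repressors, the *Per* and *Cry* genes, and the nuclear receptors REV-ERBα (*Nr1d1*) and REV-ERBβ (*Nr1d2*) repress *Arntl*. Mice are active and feed mostly in the dark. The first hours of the dark are therefore the time at which body temperature and food intake go up, and both act on the liver through signals of their own, among them heat shock factor 1, insulin, glucocorticoids and the sterol-regulated factor SREBP2. None of these signals was measured here.

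The table holds 20069 genes, and 10198 of them passed the study's minimum of 8 rpbp in at least 1 sample and were tested. For each gene the mean of the 5 other time points was subtracted from the mean at ZT14 on the scale of log2(rpbp + 1), with limma's moderated test and Benjamini-Hochberg adjustment over all genes tested. Differences below are on this scale with their standard error (SE), and a gene is called higher or lower at an adjusted p below 0.05. The added 1 rpbp understates the change of genes at low level. A second description asks only whether both ZT14 values lie above, or both below, all 10 other samples. Values are given as the ZT14 pair, series 1 first, followed by the lowest, the median and the highest of the other 10 samples.

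The ZT14 libraries had 3086 and 3103 genes listed at 0, the 2 highest numbers among the 12 libraries (2503 to 3103), and the study's methods name the series 1 library as the one with the least coverage. Depths as counts are not in the deposited table, and no counting interval is given. Their log2 levels correlated with each other across genes at r = 0.981, within the 0.975 to 0.987 of the other pairs. The ZT2 libraries stood apart from the rest, with a median r of 0.942 and 0.945 to the libraries of other times. Hepatocyte markers fitted the tissue label: 6 of 6 were tested, *Alb* was at a mean of 114473 rpbp at ZT14 and 94658 rpbp in the other samples, and none of the 6 was called. None of the 9 lymphocyte markers reached the minimum in any sample. Of the other cell types looked for, 9 Kupffer cell, 9 endothelial, 5 stellate cell, 2 cholangiocyte, 2 erythroid and 2 neutrophil markers were tested and none was called. The summed level of the 5 stellate cell markers was 271 and 300.4 rpbp at ZT14 and 233 to 264 rpbp in the other samples, with *Lrat*, the enzyme that stores retinol, at 25.2 and 30.8 rpbp against at most 25.1 rpbp. Its part in the results below was not tested. In bulk liver, fewer cells of a type and less RNA per cell cannot be told apart.

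At ZT14, 181 genes were called higher, which is 1.77% of the genes tested, and 139 were called lower, which is 1.36%. Of the 181, 87 were under 1.5-fold and 36 over 2-fold, and of the 139, 55 were under 1.5-fold and 29 over 2-fold. Both ZT14 values lay above the other 10 for 360 genes (3.53%) and below them for 306 genes (3.00%), and 109 and 99 of these were among the genes called. Of the 360, 27 reached the minimum only at ZT14, so that the minimum itself favoured them. With a gap of at least 25% between ZT14 and the nearest other sample, 34 and 24 genes were left. The calls rest on both ZT14 livers. With 1 of them left out, the other is assumed to vary like the samples of the other times. Without the series 1 liver 33 genes were called higher and 41 lower, and without the series 2 liver 5 and 5, 8 of them among the 320. Of the 77 genes named in the text that were called, 32 kept the call without the series 1 liver and 7 without the series 2 liver. Leaving out a ZT2 or ZT6 library gave 85 to 102 higher and 56 to 84 lower, leaving out the series 2 library of ZT18 gave 91 lower, and leaving out both ZT2 libraries gave 53 and 43. With a single ZT14 liver to compare, 835 genes (series 2) or 1182 (series 1) lay above all others and 1351 or 608 below.

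The same contrast for the other times, which shares all of its samples with the one above, called 20.3% of the genes for ZT2, 8.09% for ZT6, 5.82% for ZT10, 1.51% for ZT22 and 0.824% for ZT18 in either direction. For the 181 genes called higher at ZT14, the highest of the 5 other times was most often ZT10 (87 genes). It was ZT18 for 35, ZT22 for 27, ZT2 for 17 and ZT6 for 15. That time could lie above ZT14 itself, since 72 of the 181 did not have both ZT14 values above all others. The lowest time of the 181 was ZT2 for 94 genes and ZT6 for 54. For the 139 genes called lower, the lowest of the 5 other times was ZT10 for 55 genes and ZT22 for 30. That time could lie below ZT14, since 40 of the 139 did not have both ZT14 values below all others. The highest time of the 139 was ZT2 for 59 and ZT6 for 55. For 57 of the 181 and 52 of the 139, the means of the 5 other times lay within 1.5-fold of each other. Of these, 13 and 25 differed at ZT14 by at least 1.5-fold.

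The largest rises were in genes of unlike function, and chaperones, the transferrin receptor and a clock gene were among them. *Gdpd3*, a lysophospholipase D (chr7:133909928-133919157, mm9), was at 21.8 and 14.4 rpbp at ZT14 and at 0.12, 0.74 and 7.92 rpbp elsewhere. Its difference was 2.93 ± 0.54 (SE), and it was at 1.68 rpbp or less in every sample of ZT2, ZT6 and ZT18. The maternally expressed noncoding RNA *Gtl2* (also *Meg3*, chr12:110779211-110809936) was at 6.40 and 9.60 rpbp, against 0.32, 0.54 and 1.64 rpbp. *Gdpd3*, *Gtl2*, *Hspa1b* and *Hist2h3c1* passed the minimum only through ZT14, so their values are given as a description and without a p. *Tfrc*, the transferrin receptor through which cells take up iron (chr16:32609006-32632880), was at 69.9 and 116 rpbp, against 15.1, 24.4 and 50.8 rpbp. The difference of *Tfrc* was 1.74 ± 0.21 (adjusted p = 0.00537), and its next highest samples were both of ZT10, at 48.1 and 50.8 rpbp.

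*Abhd2*, a serine hydrolase (chr7:86418087-86510394), stood at 109 and 126 rpbp with 21.4, 40.4 and 63.4 rpbp elsewhere, and its difference was 1.53 ± 0.20 (adjusted p = 0.00618). *Foxq1*, a forkhead transcription factor, was at 32.9 and 50.7 rpbp, and the lower of them lay just above the highest other sample, at 32.6 rpbp. *Col27a1*, a fibrillar collagen, was at 37.5 and 43.4 rpbp against a highest other value of 27.8 rpbp. The oestrogen receptor α gene *Esr1* (chr10:5340927-5734948) was at 32.0 and 30.5 rpbp, against 6.92, 14.7 and 26.2 rpbp, and 1 sample of ZT22 accounts for that highest value. The histone H3 gene *Hist2h3c1* was at 11.1 and 11.3 rpbp, against at most 7.56 rpbp, and histone H3 genes are near-identical copies whose reads cannot always be placed. The 4 other genes of the 12 with the largest rise are *Hspa1b*, *Hsp110*, *Hspa8* and *Per2*, described with their families below.

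**Figure D1:**
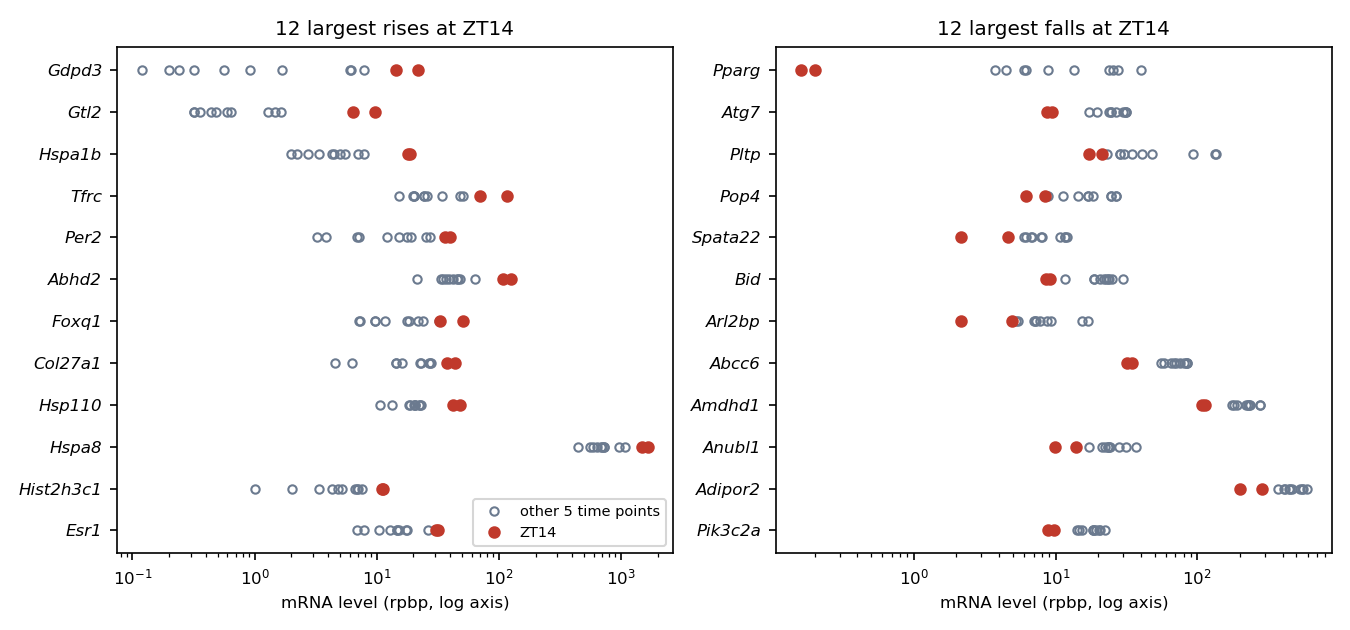
mRNA level in each of the 12 livers (rpbp, log axis) for the 12 genes with the largest rise (left) and the 12 with the largest fall (right) at ZT14 among the genes called whose ZT14 values lie outside all others. Filled red points are the 2 ZT14 livers and open points the 10 others, so that in every line the red points stand at 1 end; the widest gap on this log axis is that of *Pparg*, at 0.16 and 0.20 rpbp against at least 3.76 rpbp.

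The deepest fall of a named gene was that of *Pparg*, which encodes the nuclear receptor PPARγ, a driver of lipid storage (chr6:115311239-115440419). It was at 0.16 and 0.20 rpbp at ZT14, and at 3.76, 11.2 and 40.2 rpbp in the other samples. Its level varied widely at other times, from 3.76 and 4.48 rpbp at ZT2 to 24.0 and 27.8 rpbp at ZT6, and the pair of ZT10 livers differed from each other, at 6.24 and 40.2 rpbp. No other sample came near the ZT14 values, and the difference was -3.47 ± 0.49 (adjusted p = 0.00949). *Atg7*, an enzyme needed to form autophagosomes (chr6:114593149-114810431), was at 8.64 and 9.44 rpbp, against 17.4, 25.8 and 31.5 rpbp, a difference of -1.41 ± 0.17 (adjusted p = 0.00537).

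*Abcc6*, a transporter of the hepatocyte membrane through which the liver releases ATP (chr7:53231750-53285672), was at 31.8 and 34.9 rpbp, while the other 10 samples held between 55.0 and 84.6 rpbp with a median of 73.1 rpbp. Its difference was -1.09 ± 0.09 (adjusted p = 0.00119), and with the clone named below it was the only named gene called under every alternative tried. *Adipor2*, an adiponectin receptor (chr6:119303168-119367501), was at 285 and 201 rpbp, against 369.6, 458 and 591 rpbp. *Pltp*, the phospholipid transfer protein of plasma lipoproteins, was at 21.1 and 17.2 rpbp and ranged elsewhere from 23.0 to 136 rpbp. *Bid*, a pro-apoptotic BCL2 family member, was at 9.16 and 8.56 rpbp, against at least 11.7 rpbp.

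*Amdhd1* and *Hal* both encode enzymes of histidine breakdown, and both fell. *Amdhd1* (chr10:92986083-93002778) was at 113 and 107 rpbp, against 176, 229 and 278 rpbp, a difference of -1.01 ± 0.10 (adjusted p = 0.00388). *Hal* (chr10:92951513-92982049), which lies close by, was at 143 and 159 rpbp, against 177, 262 and 324 rpbp. The nearest other samples of *Amdhd1* were both of ZT10, and the nearest of *Hal* was 1 of the ZT10 livers. *Hal* is also 1 of 5 periportal markers, of which no other was called. Their median difference was -0.08 and their summed level 3179 and 3273 rpbp at ZT14 and 2993 to 3826 rpbp elsewhere, and their part in these falls was not tested. The phosphoinositide kinase gene *Pik3c2a* fell to 9.76 and 8.92 rpbp from a median of 18.6 rpbp, and no other sample was under 14.2 rpbp. *Pop4* (a subunit of RNase P), *Spata22* (a meiosis gene), *Arl2bp* (a binding partner of a small GTPase) and *Anubl1* complete the 12 largest falls, with differences between -1.003 and -1.21 and at most 14.04 rpbp at ZT14.

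Chaperones of the heat shock response were the family with the most called members beside xenobiotic metabolism. Of 22 genes listed, 21 were tested, 9 were called higher and none lower, and both ZT14 values exceeded all others for 8, beside 1.77% of all genes tested called higher and 3.53% above all others. The median difference over the 21 was 0.32, beside a median of -1.4e-05 over all genes tested. The summed level of the list was 5576 and 5951 rpbp at ZT14 and 3654 to 4655 rpbp in the other samples, so that the groups did not overlap.

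*Hspa8*, the constitutive HSC70 that folds new proteins and strips clathrin (chr9:40609067-40613283), was the most abundant of the 9, at 1493 and 1657 rpbp at ZT14 and 447, 696 and 1084 rpbp elsewhere. The difference of *Hspa8* was 1.19 ± 0.14 (adjusted p = 0.00537), and the 2 ZT10 livers came next, at 969 and 1084 rpbp. *Hspa1b*, the inducible HSP70 (chr17:35093381-35096183), was at 18.04 and 18.6 rpbp, against 2.00, 4.40 and 7.84 rpbp, a difference of 1.91 ± 0.31. It passed the minimum only through ZT14, and without it 8 of 20 tested chaperones were called and 7 lay above all others. It has a near-identical copy, *Hspa1a*, and only uniquely placed sequences were counted, so that its level is uncertain. The row named *Hsp110* was read as *Hsph1*, an HSP70 exchange factor (chr5:150416862-150438951), since the other gene with that synonym, *Hspa4*, has a row of its own. *Hsp110* was at 42.2 and 47.7 rpbp, against 10.7, 20.3 and 23.2 rpbp, and its difference of 1.23 ± 0.09 had an adjusted p of 0.00074.

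*Hsp90aa1*, the inducible cytosolic HSP90 (chr12:111928815-111940938), was at 332 and 364 rpbp, against 117, 205 and 282 rpbp, with ZT18 next and ZT6 lowest. Among the HSP40 co-chaperones, which start the HSP70 cycle, *Dnajb1* and *Dnaja1* rose as well: *Dnajb1* was at 38.6 and 39.7 rpbp, against at most 31.3 rpbp, and *Dnaja1* at 331 and 343 rpbp, against at most 306 rpbp. *Stip1*, which hands clients from HSP70 to HSP90, was at 88.8 and 91.0 rpbp, against 46.0, 62.5 and 70.2 rpbp. *Chordc1*, an HSP90 partner, was at 73.9 and 62.5 rpbp, just over the 61.6 rpbp of 1 ZT18 liver. The steroid receptor co-chaperone *Fkbp4* was called with a small difference of 0.32 ± 0.07 and overlapped with ZT18, which had 237 and 249.9 rpbp. The other 12 genes of the list were not called, with differences from -0.21 (*Hspb1*) to 0.39 (*Dnajb4*). Among them *Hsp90ab1* had 0.30, *Hspe1* 0.26, *Hspd1* 0.22, *Hspa4* -0.01 and the heat shock factor gene *Hsf1* itself 0.24.

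Leaving out the series 2 liver of ZT14 ended the calls of *Hspa8*, *Hspa1b*, *Hsp90aa1*, *Dnajb1*, *Dnaja1*, *Stip1*, *Chordc1* and *Fkbp4*, and that of *Hsp110* held. In the neighbouring contrasts *Hsp110* was the only gene of the 181 that was also called higher at ZT14 than at both ZT10 (1.02 ± 0.12, adjusted p = 0.0133) and ZT18 (0.96 ± 0.12, adjusted p = 0.0221).

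**Figure D2:**
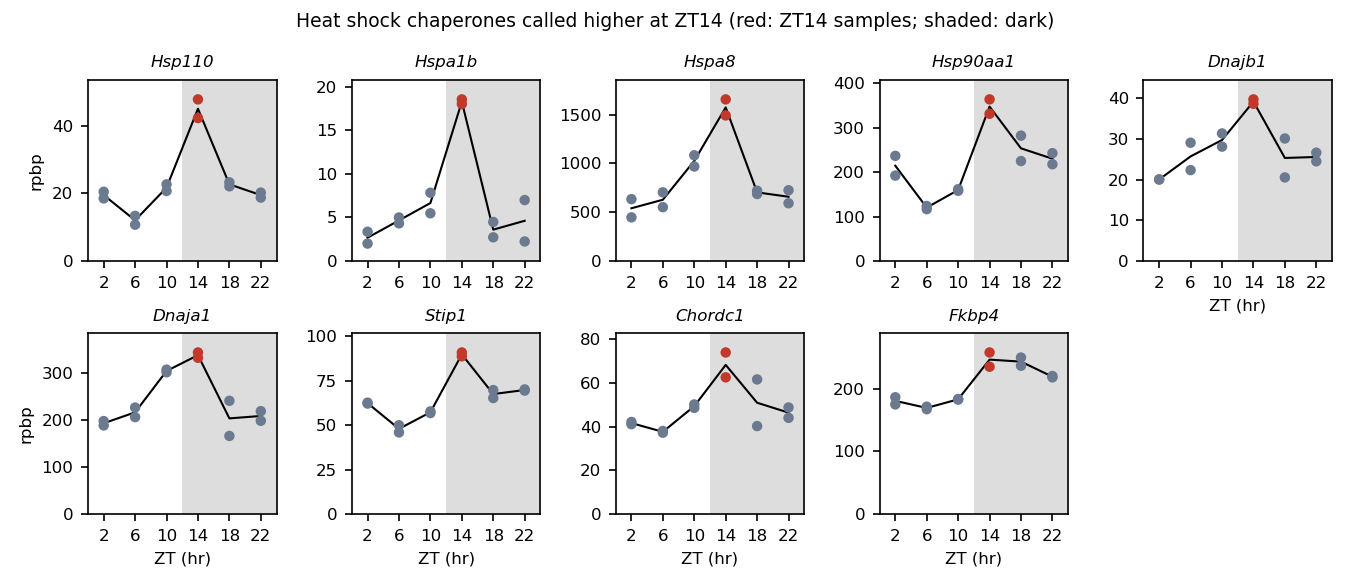
Level (rpbp, axis from 0) of the 9 heat shock chaperone genes called higher at ZT14, by zeitgeber time. Points are single samples, red for ZT14, lines join the means of 2, and the dark phase is shaded. In 8 of the 9 panels both red points lie above all others, and in *Fkbp4* they overlap with ZT18.

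Heat shock factor 1 binds repeats of GAA and TTC that face each other. Promoter windows from 250 bases before to 50 after a gene's start were taken from RefSeq (GRCm38.p6), and 16 of the 21 tested chaperone genes had 1 or more. A run of 3 units, GAANNTTC followed by any 2 bases and GAA, was searched on both strands. It holds within it the pairs GAANNTTC and TTCNNGAA, which were searched too. It was found in 5 of the 22 windows of these genes (22.7%), from *Chordc1*, *Hsp110*, *Hspd1* and *Hspe1*, and in 0.535% of the 8779 windows of all tested genes. Windows of 1 gene can overlap, and the run of *Hsp110* is counted in more than 1 window. By gene it was found in 4 of 16, beside 41 of the 6898 tested genes with a window. The pair GAANNTTC was found in 10 of the 22 windows (45.5%) and in 5.99% of all, and TTCNNGAA in 6 of the 22 (27.3%) and in 7.21% of all. Among the 166 windows of genes called higher, 5 held the full run, from *Hsp110*, *Chordc1*, *Timm9* and *Slc29a1*, which are 4 of 123 genes. Among the 128 windows of genes called lower 0 did. The pairs, within the full run or outside it, were in 7.83% (GAANNTTC) and 6.02% (TTCNNGAA) of the windows of genes called higher. These are near their shares of all windows. *Hspd1* and *Hspe1*, which lie head to head, hold it and were not called, while no window was at hand for *Hspa8* and *Hsp90aa1*. The windows of 3 called chaperones are shown to let the repeats be seen in place. Capitals mark the full run, or in *Hspa1b* the pair GAANNTTC, and further matches of the pair TTCNNGAA outside the run are left in lower case. The run of *Hsp110* starts 36 bases after the gene's start and not before it. *Dnajb1* and *Stip1*, also called, have windows with none of these matches. Those of *Hsp110* (chr5:149636287-149636586, minus strand) and *Chordc1* (chr9:18292017-18292316, plus strand) hold the full run, read on the other strand in *Hsp110* and found as 3 overlapping matches in *Chordc1*, and that of *Hspa1b* (chr17:34959189-34959488, minus strand) holds the pair only. A match is a run of letters and no measured binding site.
Hsp110: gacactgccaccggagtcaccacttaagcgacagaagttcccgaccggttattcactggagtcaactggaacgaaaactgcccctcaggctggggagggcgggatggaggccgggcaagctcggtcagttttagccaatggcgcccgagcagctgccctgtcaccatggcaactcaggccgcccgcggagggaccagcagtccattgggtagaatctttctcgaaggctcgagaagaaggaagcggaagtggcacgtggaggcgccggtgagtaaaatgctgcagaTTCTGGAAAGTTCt
Chordc1: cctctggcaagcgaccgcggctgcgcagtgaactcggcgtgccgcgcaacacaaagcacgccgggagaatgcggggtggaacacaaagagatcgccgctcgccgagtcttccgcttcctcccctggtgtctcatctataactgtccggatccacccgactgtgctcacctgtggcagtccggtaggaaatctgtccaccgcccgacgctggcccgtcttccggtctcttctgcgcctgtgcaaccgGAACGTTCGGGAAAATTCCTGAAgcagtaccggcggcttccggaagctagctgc
Hspa1b: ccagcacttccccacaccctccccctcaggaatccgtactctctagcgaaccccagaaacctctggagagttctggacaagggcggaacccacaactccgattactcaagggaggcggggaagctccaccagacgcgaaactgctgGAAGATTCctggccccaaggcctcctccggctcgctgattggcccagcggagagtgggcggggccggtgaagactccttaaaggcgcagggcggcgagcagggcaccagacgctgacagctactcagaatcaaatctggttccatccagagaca

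Of the 24 clock genes listed, 22 were tested, 7 were called higher at ZT14 and 1 lower, and only *Per2* had both ZT14 values above all others (all genes tested: 1.77% higher, 1.36% lower, 3.53% above all others). *Per2*, a repressor of CLOCK and BMAL1 (chr1:93312561-93355907), was at 35.96 and 40.04 rpbp, against 3.24, 13.6 and 27.4 rpbp, and its difference of 1.66 ± 0.10 had the smallest adjusted p of a named gene that rose (0.000153). Its level went from 3.24 and 3.88 rpbp at ZT2 through 17.7 and 19.2 at ZT6 and 27.4 and 25.4 at ZT10 to the peak at ZT14, and was down to 15.2 and 12.0 rpbp at ZT18. The other called members were on their way up or down at ZT14. *Per1* was at 10.4 and 8.60 rpbp, below the 11.9 and 13.8 rpbp of ZT10. *Per3* was at 15.0 and 13.8 rpbp, below both ZT6 (20.6 and 23.5 rpbp) and ZT10 (21.8 and 16.5 rpbp). *Cry1*, the late repressor, was at 35.2 and 39.2 rpbp on a rise from 19.6 and 15.3 rpbp at ZT10 to 49.4 and 51.0 rpbp at ZT18.

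*Tef*, a PAR bZIP activator, was at 89.8 and 90.8 rpbp, and *Usp2*, a deubiquitinase, at 17.4 and 17.6 rpbp, both under their ZT10 values. *Nr1d1* was the only clock gene called lower, at 3.80 and 6.60 rpbp, with a difference of -2.01 ± 0.17 (adjusted p = 0.00119). It was as low at ZT18, at 4.08 and 3.84 rpbp, and had been at 142 and 108 rpbp at ZT6. Its partner *Nr1d2* was still at 36.5 and 45.5 rpbp and its difference was 0.17 (adjusted p = 0.538).

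The activators of the loop were between their trough and peak. *Arntl* was at 7.76 and 12.9 rpbp, above the 2.84 and 4.44 rpbp of ZT10 and below the 23.5 and 29.4 rpbp of ZT18, and *Clock* was at 27.0 and 27.4 rpbp, between 17.4 and 17.4 at ZT10 and 34.7 and 35.8 at ZT18. Against the mean of the other times neither differed beyond its error (adjusted p = 0.885 and 1.00), whereas *Clock* was called higher than at ZT10 (0.61 ± 0.09, adjusted p = 0.0236). *Npas2*, a relative of *Clock*, is listed at 0 in both ZT14 livers. This low level was shared with ZT10, at 0 and 0.12 rpbp, and ZT6, at 0.36 and 0.04 rpbp. *Npas2* was at 3.84 and 4.60 rpbp at ZT18 and 10.2 and 6.36 rpbp at ZT22. It was not called (adjusted p = 0.0579), and was called with a pseudocount of 4 rpbp (adjusted p = 0.0411), with no minimum (0.0126), without the variance trend (0.00648) and without the series 1 liver of ZT10 (0.0494), and its adjusted p reached 0.615 with the other 10 samples pooled. *Dbp*, a PAR bZIP activator driven directly by the loop, had dropped to 15.96 and 20.1 rpbp from 193 and 241 rpbp at ZT6, and its difference from the mean of the other times was 0.15 (adjusted p = 0.753). The output gene *Nfil3*, a repressor at D-boxes, was at 48.0 and 51.7 rpbp and called higher than at ZT10 (0.84 ± 0.14, adjusted p = 0.0349) but not than the mean of the other times (0.20, adjusted p = 0.364). The other 8 genes tested were not called, and *Ccrn4l* (*Noct*, 0.93 ± 0.26) and *Gm129* (*Ciart*, 0.87 ± 0.30) had the largest differences among them.

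**Figure D3:**
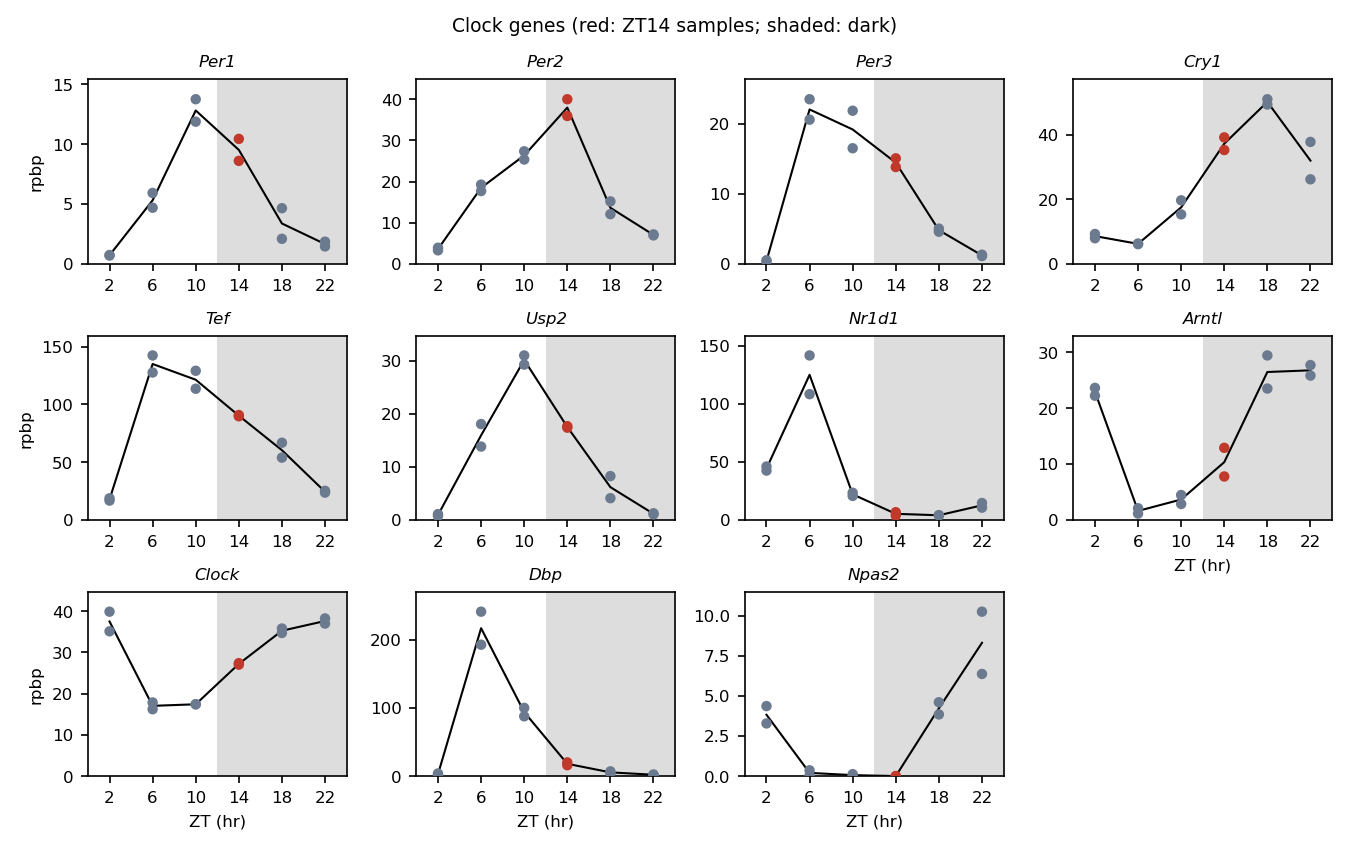
Level (rpbp, axis from 0) of 11 clock genes by zeitgeber time. Points are single samples (ZT14 in red), lines run through the means of 2, and the dark phase is shaded. *Per2* peaks at ZT14, *Cry1*, *Arntl* and *Clock* are rising there, and *Per1*, *Per3*, *Tef*, *Usp2* and *Dbp* are falling.

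The E-box CACGTG, the site of CLOCK and BMAL1, and the D-box TTATGTAA, the site of the PAR bZIP factors, were searched on both strands of the same windows. None of these letters hold another of the motifs searched. The E-box was in 27 of 166 windows of genes called higher (16.3%), in 13 of 128 of those called lower (10.2%) and in 10.3% of all 8779. The D-box was in 4 of 166 (2.41%), 1 of 128 (0.781%) and 0.604% of all. The cAMP element TGACGTCA was in 3 of 166 (1.81%), 7 of 128 (5.47%) and 3.12% of all. Of the 22 windows of 17 tested clock genes, 5 held an E-box (22.7%; from *Cry1*, *Gm129*, *Per1* and *Tef*) and 1 a D-box (*Per3*, with 2 matches). The windows of *Per1* (chr11:69098699-69098998, plus strand), *Cry1* (chr10:85185005-85185304, minus strand) and *Per3* (chr4:151044616-151044915, minus strand; GRCm38.p6, RefSeq) are shown with these matches in capitals, as 3 repressors of the loop that were called higher at ZT14 and differed in their peak time. No window was at hand for *Per2*.
Per1: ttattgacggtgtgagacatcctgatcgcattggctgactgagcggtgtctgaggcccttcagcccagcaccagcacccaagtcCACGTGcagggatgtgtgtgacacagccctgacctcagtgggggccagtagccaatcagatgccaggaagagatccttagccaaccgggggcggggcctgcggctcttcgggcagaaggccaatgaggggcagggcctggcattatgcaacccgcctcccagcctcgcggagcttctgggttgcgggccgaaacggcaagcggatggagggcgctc
Cry1: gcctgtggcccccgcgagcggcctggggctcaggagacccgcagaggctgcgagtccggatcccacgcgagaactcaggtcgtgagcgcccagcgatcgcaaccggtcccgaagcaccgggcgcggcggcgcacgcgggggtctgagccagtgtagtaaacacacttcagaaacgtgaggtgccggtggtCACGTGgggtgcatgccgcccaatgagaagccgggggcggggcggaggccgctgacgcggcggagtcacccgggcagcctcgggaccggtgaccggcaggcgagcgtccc
Per3: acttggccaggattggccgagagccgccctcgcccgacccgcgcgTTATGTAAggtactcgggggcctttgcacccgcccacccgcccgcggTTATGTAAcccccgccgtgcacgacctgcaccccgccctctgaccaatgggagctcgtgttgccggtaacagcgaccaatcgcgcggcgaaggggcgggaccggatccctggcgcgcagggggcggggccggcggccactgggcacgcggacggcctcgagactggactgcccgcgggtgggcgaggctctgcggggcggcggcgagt

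Of 24 genes of cholesterol synthesis listed, 23 were tested, 4 were called higher and none lower, and 6 lay above all others, beside 1.77% and 3.53% of all genes tested. In all, 21 of the 23 differences were positive, and the median was 0.43. Their summed level was 3228 and 3982 rpbp at ZT14 and 2287 to 3790 rpbp in the other samples, so that the groups overlapped. *Lss*, the cyclase that makes lanosterol, was at 54.5 and 68.3 rpbp, against 22.8, 35.7 and 44.9 rpbp, a difference of 0.85 ± 0.14 (adjusted p = 0.0154). *Srebf2*, which encodes SREBP2, the activator of the pathway, was at 33.7 and 42.4 rpbp, against at most 34.3 rpbp, and *Hsd17b7* at 58.8 and 65.1 rpbp, against at most 56.5 rpbp. *Sqle*, *Idi1*, *Nsdhl* and *Dhcr7* had both ZT14 values above all others and were not called, with differences of 1.48, 0.83, 0.58 and 0.39 (adjusted p = 0.0695, 0.0692, 0.0767 and 0.236). In *Sqle* the spread lay elsewhere too, since the pair of ZT10 livers was at 45.0 and 18.8 rpbp and that of ZT18 at 17.8 and 54.9 rpbp. The series 2 liver of ZT14 was the higher of the pair in *Sqle*, *Lss*, *Srebf2*, *Hsd17b7* and *Idi1*, and without it none of the 4 calls held.

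Of all genes tested, 1.36% were called lower. *Scd1*, the desaturase that makes oleate, was the only 1 of 26 tested genes of fatty acid synthesis that was called, and it fell. It was at 2719 and 1506 rpbp at ZT14, at 27154 and 18548 at ZT6 and at 8948 and 23462 at ZT10, and only ZT2 was lower, at 647 and 762 rpbp. The difference from the mean of the other times was -1.71 ± 0.35 (adjusted p = 0.0383). Of 25 tested PPARα and fasting targets, 2 were called lower (1.36% of all genes tested) and none higher, and both are fatty acid ω-hydroxylases of the same gene cluster. *Cyp4a14* (chr4:115158805-115168747) was at 22.4 and 5.60 rpbp, against 1430 and 1322 at ZT6, 249 and 1058 at ZT10, and 1.64 and 1.72 at ZT2. *Cyp4a10* (chr4:115190869-115206254) was at 115 and 55.2 rpbp, against 996 and 902 at ZT6 and 9.08 and 12.8 at ZT2, and it was called lower than at both ZT10 (-3.08 ± 0.36, adjusted p = 0.0133) and ZT18 (-2.46 ± 0.36, adjusted p = 0.0286). The lipid droplet protein gene *Adfp* (*Plin2*) had both ZT14 values, 365 and 334 rpbp, below all others and was not called (adjusted p = 0.074). The median difference was 0.02 for fatty acid synthesis and -0.10 for the PPARα targets.

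Of 44 tested genes of xenobiotic metabolism, 9 were called higher (1.77% of all genes tested) and none lower, with a median difference of 0.32. Their summed level, 46330 and 54790 rpbp at ZT14 and 32340 to 53020 rpbp elsewhere, overlapped too. *Cyp2c37* was at 700.3 and 848 rpbp, against 177, 510.1 and 624 rpbp, *Cyp2c50* at 1349 and 1323 rpbp, against at most 1177 rpbp, and *Fmo5* at 1397 and 1407 rpbp, against at most 1278 rpbp. The 2 *Cyp2c* genes belong to a family of close copies, between which sequences may be split. *Ahr*, the aryl hydrocarbon receptor gene (chr12:36182646-36219710), was at 40 and 41.6 rpbp, against 19.4, 24.5 and 34.4 rpbp. The other 5 did not stand above all other samples. *Por*, the electron donor of the P450 enzymes, was at 377 and 471 rpbp at ZT14, and at 524 and 434 at ZT10, and *Cyp2a5*, which oxidizes coumarin, was at 1893 and 4365, and at 3070 and 1484 at ZT10. The receptor genes *Nr1i2* (PXR) and *Nr1i3* (CAR) were at 102 and 97.7 rpbp and at 233 and 231 rpbp. At ZT10 they stood at 97.2 and 112 rpbp and at 252 and 240.4 rpbp. *Inmt* was at 1669 and 2013 rpbp and called higher with a difference of 0.50, yet it was below its ZT10 level (-0.60 ± 0.11, adjusted p = 0.0473), and against ZT10 and ZT18 alone, or without the ZT2 livers, the sign was reversed at -0.28 and -0.01. The pericentral markers, which several of these genes resemble in their zone of the liver, were at a summed 13770 and 19880 rpbp at ZT14 and 9794 to 17860 rpbp elsewhere, 0 of the 7 was called, *Cyp1a2* stood at 1082 and 2558 rpbp against at most 1272 rpbp, and their part was not tested.

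Among 13 tested glucocorticoid targets, 3 were called higher and 1 lower, beside 1.77% and 1.36% of all genes tested. The median difference over the 13 was -0.06, and only 6 of the 13 differences were positive. *Tsc22d3* (GILZ; chrX:137074067-137135198) was at 217 and 216 rpbp, against 54.0, 113 and 164 rpbp, and its difference was 1.121 ± 0.13 (adjusted p = 0.00537). *Fkbp5*, a brake on the glucocorticoid receptor, was at 66.6 and 51.4 rpbp, overlapping with the 55.5 and 42.2 rpbp of ZT10, and *Per1* is the third. *Klf9* went the other way, at 34.6 and 35.5 rpbp, just under the 36.6 rpbp of 1 ZT22 liver, with a difference of -0.73 ± 0.12 (adjusted p = 0.0164). *Il6ra*, the interleukin-6 receptor gene of the acute phase list, was at 43.4 and 47.3 rpbp, against 16.6, 20.0 and 41.8 rpbp, while no acute phase protein gene was called. *Myc*, a growth regulator, was at 13.96 and 13.2 rpbp and *Wee1*, a cell cycle kinase, at 18.3 and 18.8 rpbp, both within the range of ZT10 or below it.

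Other lists held 1 to 3 called genes each, beside 1.77% higher and 1.36% lower of all genes tested. A single call says little about a list. It was 1 of 69 respiratory chain genes (*Cox7a2*) and 1 of 42 of translation initiation (*Eif4b*). It was 1 of 31 of ribosome biogenesis (*D13Wsu177e*) and 1 of 26 of the unfolded protein response (*Syvn1*). In bile acid synthesis and export, *Hsd3b7* (389.8 and 348 rpbp) and the export pump *Abcb11* (227 and 215 rpbp) were called lower at levels like those of ZT10, and *Akr1d1* (376 and 356 rpbp) was called higher on a plateau that ran from ZT6. *Asl*, of the urea cycle, was called higher at 655 and 743 rpbp, a level shared with ZT18. *Sec23b* and *Ssr1* of the secretory pathway, the ubiquitin ligase *Syvn1* of the unfolded protein response and the nucleolar gene *D13Wsu177e* (*Nop16*) were called higher, with differences of 0.43, 0.37, 0.86 and 0.44. *Pbef1* (*Nampt*), the rate-limiting enzyme of NAD salvage, was called higher at 118 and 103 rpbp, below ZT10. *Gsr* (46.4 and 43.8 rpbp), *Cbs* (335 and 292 rpbp), *Phospho1* (10.7 and 9.44 rpbp), *Eif4b* (135 and 114 rpbp) and *Cox7a2* (114 and 124 rpbp) were called lower. Of these, *Gsr* (glutathione reductase) and *Eif4b* (a translation initiation factor) had both ZT14 values below all others.

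None of 77 tested cytoplasmic ribosomal protein genes was called, their median difference was 0.14 with 68 of 77 positive, and 9 had both ZT14 values above all others, beside 3.53% of all genes tested. None of 37 proteasome genes was called, their median was -0.09 with 7 of 37 positive, and 5 had both ZT14 values below all others, beside 3.00% of all genes tested, among them *Psmd10* at 17.2 and 17.8 rpbp, against at least 19.6 rpbp. In the lists of glycolysis, glycogen, insulin and growth hormone signalling, splicing regulators, apolipoproteins, aminoacyl-tRNA synthetases, amino acid transporters and cold-inducible RNA-binding proteins no gene was called either. From glycogen on, the members with the largest difference in each list were *Gys2* (0.64, adjusted p = 0.0722), *Trib3* (-0.88, 0.206), *Socs2* (-1.25, 0.157), *Tra2a* (0.36, 0.161), *Apoa4* (0.90, 0.53), *Farsa* (0.42, 0.121), *Slc1a2* (0.48, 0.44) and *Cirbp* (-0.40, 0.278). A p above the threshold does not show that these genes kept their level.

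**Figure D4:**
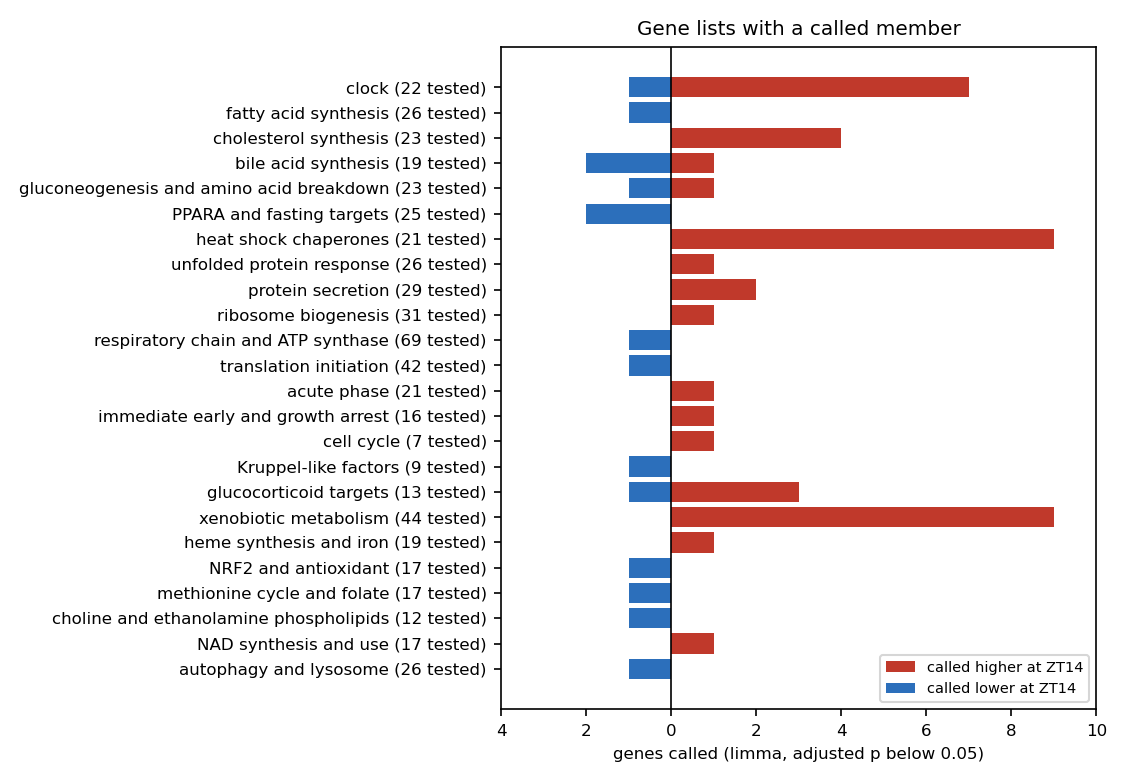
Number of genes called higher (red, to the right) and lower (blue, to the left) at ZT14 in each functional list with at least 1 called gene, with the number tested in brackets. Heat shock chaperones and xenobiotic metabolism have 9 higher each, the clock 7 higher and 1 lower and cholesterol synthesis 4 higher, and the other lists have 1 to 4 calls.

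Several of the genes that fell lie near each other on chromosome 6. From *Arpc4* to *Bid* (chr6:113328107-120866871, mm9), a stretch of 7.54 Mb, 43 tested genes have a position. Of these, 8 had both ZT14 values below all other samples and 1 had both above, beside 3.00% and 3.53% of all genes tested. In order the 8 below are *Arpc4*, *Ttll3*, *Atg7*, *Pparg*, *Anubl1*, *Zfp422*, *Adipor2* and *Bid*. Of the 8, 6 were called lower, all but *Arpc4* and *Zfp422*, beside 1.36% of all genes tested. On the rest of the chromosome 7 of 372 tested genes were below. Over the whole chromosome 3.61% were below, beside 5.34% on chromosome 7 and 5.35% on chromosome 8. The stretch and its ends were chosen after the values had been seen, so no test was made. The other 34 genes lie between these 8 and include direct neighbours with no such difference: *Vgll4*, next to *Atg7*, had a difference of 0.01 and *Bcl2l13*, which overlaps with *Bid*, 0.06. *Ttll3* was at 2.76 and 3.16 rpbp, against 4.32, 6.80 and 9.32 rpbp, *Zfp422* at 11.5 and 11.2 rpbp, against at least 13.0 rpbp, and *Arpc4* at 65.2 and 61.2 rpbp, against at least 67.8 rpbp. *Arpc4* and *Ttll3* overlap, and the exon signal was summed without regard to strand.

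**Figure D5:**
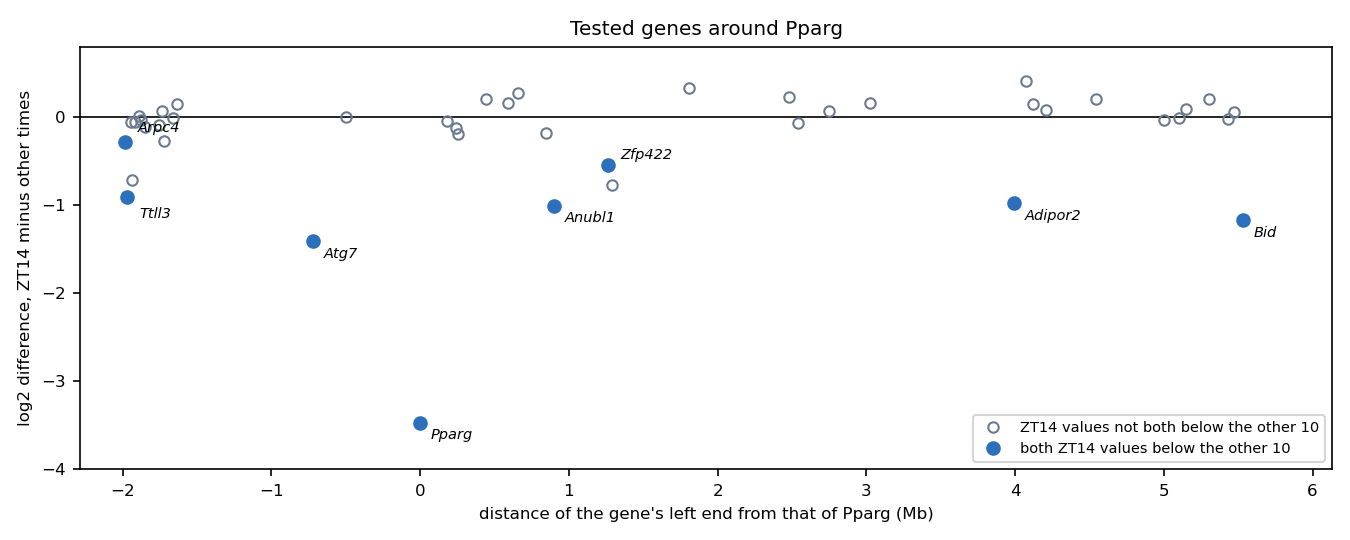
Log2 difference of ZT14 from the mean of the other times for the 43 tested genes of the stretch around *Pparg*, by the distance of each gene's left end from that of *Pparg* (Mb). Filled blue points are the 8 genes with both ZT14 values below all others and open points the other 35, most of which lie near 0.

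Against its neighbours alone, ZT14 had 55 genes higher (0.539%) and 36 lower (0.353%) than ZT10, and 22 higher (0.216%) and 29 lower (0.284%) than ZT18, with the spread estimated over all 12 samples. The 2 contrasts share the ZT14 livers. Of the 181 genes higher than the mean of the other times, 21 were also called above ZT10 and 17 above ZT18, and *Hsp110* was in both. Of the 139 genes lower, 26 were also called below ZT10 and 20 below ZT18, and 11 were in both: *Pparg*, *Atg7*, *Abcc6*, *Amdhd1*, *Pik3c2a*, *Cyp4a10*, *Cox7a2*, the succinate receptor gene *Sucnr1* and 3 transcripts known only by a clone name. *Sucnr1* was at 35.5 and 28.4 rpbp at ZT14, at 79.3 and 96.8 at ZT10 and at 63.8 and 112 at ZT18, and was as low at ZT2, at 33.0 and 27.0 rpbp. Both contrasts lost most calls without a ZT14 liver: at most 1 gene was then called above ZT10 and 4 below it, and at most 6 above ZT18 and 9 below it. Without the series 2 liver of ZT10, 8 were called above and 4 below ZT10, and without the series 1 liver of ZT10 76 below it. Without a ZT18 liver, at most 12 were called above and 11 below ZT18, and without a ZT10 liver 62 above it and 60 to 61 below it. Leaving out a ZT2 or ZT6 library gave 25 to 36 above and 13 to 17 below ZT10, and 10 to 15 above and 10 to 15 below ZT18.

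A last comparison asked whether ZT14 departs from a smooth daily curve. A 24 hr cosine was fitted with a term of its own for ZT14, so that the other 10 samples alone set the curve. Of the 10198 genes, 1 departed from it at ZT14 (0.00981%), the transcript listed by its clone name AK085337. It was at 22.3 and 22.8 rpbp at ZT14 and between 63.9 and 87.9 rpbp in the other 10 samples, with a median of 76.9 rpbp, and lay 1.80 below the curve on the log2 scale (limma, adjusted p = 0.00103). No gene departed upwards; at an unadjusted p below 0.05 816 genes did, and 447 departed downwards. *Abcc6* came nearest of the named genes, at -1.30 with an adjusted p of 0.0598, and *Per2*, at 0.26 and 0.784, did not depart beyond its error. Without the series 1 liver of ZT10, 11 genes lay above the curve and 24 below it.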

How the data were processed

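Poly(A) RNA of 12 mouse liver samples was sequenced, at 6 time points in 2 independent series. Per the submitters' processing notes and the study's methods, CASAVA 1.8, TopHat and mm9 were used. The authors kept uniquely mapped sequences, and summed the coverage over all exons of a gene, strands together, per base of exon. The authors scaled this signal to 10000000 sequences in each sample before it was deposited, and it was multiplied by 4 here. It is no count, so no count test and no counting interval were used. The deposited F24 score, phase and p-value columns are the authors' own test of rhythm and were not used. Samples were grouped by the time in their labels. Genes that exceeded 8 rpbp in any sample were tested with limma 3.58.1 (R 4.3.3, trend) on log2(rpbp + 1), 6 groups of 2. The sources say that the 2 series were independent, not how many animals a sample holds, so p-values measure the spread between these samples only. Members and gene lists were chosen with earlier results of these data known. Genes were named by rule: all clock genes; the 12 largest rises and falls among genes called, with both ZT14 values outside the other 10, a mean of at least 8 rpbp in the higher of ZT14 and the rest, which a rise can meet through ZT14 alone, and a name other than a clone's; in each other list up to 4 called members, or the 1 with the largest difference; and up to 5 off the cosine in each direction. Further genes were named after their values were seen: *Dnajb1*, *Dnaja1*, *Stip1*, *Chordc1*, *Fkbp4*, *Cyp2c50*, *Fmo5*, *Nr1i2*, *Nr1i3*, *Inmt*, *Sqle*, *Idi1*, *Nsdhl*, *Dhcr7*, *Adfp*, *Sucnr1*, AK085337 and those of the chromosome 6 stretch. Positions are from GENCODE vM1 (mm9) for the 8856 tested names that matched. RefSeq (GRCm38.p6) gave 8912 current names and the promoter windows. The 181 names called higher stand for 175 genes. The fit was tested on simulated data. Alternatives were other pseudocounts, minimums and scalings, no trend, a replicate block, other reference groups and leaving out each sample. A few genes that the rule names are not reported here.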

Additional observations from a re-analysis of the deposited data

How the results depend on the processing

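The direction of every named gene called held under the alternatives tried, except *Inmt*, whose difference was -0.28 against ZT10 and ZT18 alone and -0.014 without the ZT2 livers, an alternative chosen after seeing the data. The 181 genes called higher became 0 with the 10 other samples pooled as 1 group, 19 against ZT10 and ZT18 alone, 53 without both ZT2 livers and 94 with at least 1.5-fold, and 5 to 185 with 1 sample left out. The 139 called lower became 5, 21, 43 and 84 in the same order, 79 with no minimum, and 5 to 169 with 1 sample left out. Pooling puts the daily rhythm of each gene into its spread. With no minimum the contrast with ZT10 gave 28 higher and 15 lower and that with ZT18 14 and 9. Without the variance trend ZT10 gave 17 lower, and ZT18 10 higher and 14 lower. With 1 sample left out they ranged from 1 to 67 and 2 to 76 for ZT10 and from 0 to 62 and 1 to 61 for ZT18. Off the cosine, a pseudocount of 0.1 rpbp gave 1 higher and 3 lower, no minimum 3 higher, and samples left out 0 to 11 and 1 to 24. Genes above all other samples were 554 with no minimum and 34 with a gap of at least 25%, and 377 to 1182 with 1 sample left out. Genes below all others were 24 with the gap and 318 to 1351 with 1 sample left out. The cause of these shifts was not tested. The study's methods list the uniquely mapped sequences of each library, which are not repeated here, and values under the minimum of 8 rpbp are the least certain.

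The series number did not pair the samples: over 15 pairs of time points, the deviations of same-numbered samples correlated at -0.153 to 0.206 (median -0.0258), and 2 pairs were over 0.1. With the replicate block 127 genes were called higher and 86 lower (200 of the 320 among them), 20 lower than ZT10, 17 lower than ZT18 and 2 below the cosine.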
